A study of Homo sapiens with 4 samples.

Results

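THBS1 encodes thrombospondin-1, a secreted protein of the cell surroundings, and 8 related genes were described with it in human colonic epithelial cells after knockdown of APC. These were THBS2, CYR61, CTGF, ANKRD1, AMOTL2, TGFBI, TNC and SPARC, which makes 9 genes of the 33538 listed. THBS1 was chosen by its low shAPC/shScr ratios at both times. The other 8 genes were chosen for their known function, with earlier results of these data known. The ratio of THBS1 is therefore a description of why it was picked, and no test supports it.

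The cells were HCEC 1CT, a line of human colonic epithelial cells that was immortalised by TERT and CDK4 and that the labels call progenitor cells. All 4 cultures were of this line, in medium with epidermal growth factor, hydrocortisone, insulin, transferrin, selenite and a little serum. The shAPC cultures received an shRNA against APC and the shScr cultures a scrambled shRNA, both delivered by a virus and selected with puromycin. Single cell RNA sequencing (scRNA-seq) was performed 3 and 7 days after transduction, which gives a shScr and a shAPC library of day 3 and another pair of day 7. The sources differ on the kind of virus and on the version of the 10x Genomics kit. Each group was 1 library of 1 culture, so no spread between replicates is known and no test between groups was possible. The intervals given are 95% intervals and cover counting error only.

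Matricellular proteins are secreted into the matrix, where they regulate cell behaviour through receptors rather than serving as scaffold. Thrombospondin-1 binds CD47, CD36, integrins and syndecans, and it can release TGF-beta from its latent complex. YAP and TAZ are coactivators held back by the kinases of the Hippo pathway, and in the nucleus they act with TEAD factors on genes such as CYR61, CTGF and ANKRD1, while AMOTL2 is both such a target and a restraint on YAP. In the intestine, APC belongs to the complex that degrades beta-catenin, and it has been linked to YAP as well.

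The 250 bases before the start of a gene were read from RefSeq promoters of build GRCh38.p14. This gave 9 windows for 8 of the 9 genes, because AMOTL2 had a pair of starts and CYR61 had no window. Both strands were searched for the TEAD motif GGAATG, the AP-1 motif TGANTCA, the SMAD motif CAGAC and the TCF/LEF motif CTTTGA. Shown are the windows of THBS1, of the YAP targets CTGF (now named CCN2) and ANKRD1, and of TGFBI, whose ratio between shAPC and shScr went the other way. Capitals mark any match on either strand.
THBS1 (chr15:39580829-39581078, plus strand): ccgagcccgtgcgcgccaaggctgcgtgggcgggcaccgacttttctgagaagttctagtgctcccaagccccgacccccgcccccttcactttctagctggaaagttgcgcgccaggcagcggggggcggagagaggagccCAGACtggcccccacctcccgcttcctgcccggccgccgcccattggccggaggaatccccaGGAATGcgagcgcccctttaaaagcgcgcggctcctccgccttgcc
CTGF (chr6:131951373-131951622, minus strand): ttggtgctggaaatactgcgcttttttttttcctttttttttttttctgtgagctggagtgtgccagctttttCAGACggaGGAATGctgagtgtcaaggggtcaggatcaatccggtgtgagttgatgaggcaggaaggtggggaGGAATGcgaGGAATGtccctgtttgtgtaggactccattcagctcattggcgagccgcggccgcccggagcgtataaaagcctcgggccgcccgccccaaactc
ANKRD1 (chr10:90921088-90921337, minus strand): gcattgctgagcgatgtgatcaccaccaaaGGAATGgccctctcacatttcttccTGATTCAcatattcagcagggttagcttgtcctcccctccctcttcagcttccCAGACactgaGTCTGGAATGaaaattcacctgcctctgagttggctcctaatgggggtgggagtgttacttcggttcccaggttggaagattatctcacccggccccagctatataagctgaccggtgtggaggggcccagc
TGFBI (chr5:136028738-136028987, plus strand): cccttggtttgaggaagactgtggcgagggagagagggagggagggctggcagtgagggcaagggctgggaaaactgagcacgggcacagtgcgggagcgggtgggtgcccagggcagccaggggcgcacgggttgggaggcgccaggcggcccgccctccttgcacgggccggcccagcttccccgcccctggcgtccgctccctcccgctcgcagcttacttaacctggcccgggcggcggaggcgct
The TEAD motif was found in the windows of THBS1, THBS2, CTGF, ANKRD1, AMOTL2 and SPARC, in 6 of the 9 windows, and it is present in 11.9% of all 35116 promoter windows of this length. CTGF held 3 matches and ANKRD1 and THBS2 held 2 each. The window of TGFBI held none of the 4 motifs. Whether a motif goes with the direction of the ratio was not tested. THBS2 held 2 TEAD matches, with log2 ratios of shAPC to shScr of 0.15 at day 3 and 0.47 at day 7. TNC held no TEAD match, with ratios of -0.11 and -1.45, and both genes were scarce. The SMAD motif was in 6 of the 9 windows, against 38% of all windows. The AP-1 motif was in that of ANKRD1 alone (6.57% of all windows), and the TCF/LEF motif in 1 window of AMOTL2 alone (11.2% of all windows). In ANKRD1 a TEAD and a SMAD match overlapped. These matches describe the letters and show no binding. Known targets of YAP and TEAD were chosen as members, so their share of TEAD matches is a description and no separate result.

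The 4 libraries held 788 to 2600 kept cells and 28451455 to 39797418 UMIs, the counts of distinct RNA molecules, over these cells. APC, the targeted gene, was at 16.1 UMIs per 1000000 UMIs of the library (CPM) in shScr day 3, 5.52 in shAPC day 3, 19.1 in shScr day 7 and 6.61 in shAPC day 7, which is 34.4% and 34.6% of the control. The median depth of a kept cell was 1330 UMIs in shScr day 7 and 21029.5 to 49685.5 in the other libraries. A limit on mitochondrial UMIs took 51.1% of the barcodes of shAPC day 7 and 23.4% to 28.8% of the others. Per the matrix headers, Cell Ranger 3.0.2 wrote both shScr matrices and 3.0.0 both shAPC matrices, so the software version and the shRNA cannot be told apart. The libraries of the same day shared 23 barcodes at day 3 and 25 at day 7, and those of different days shared 2 to 7. Of 6 epithelial markers none reached 20 CPM in any library, and their summed level was 25 to 49.2 CPM. EPCAM and CDH1, the epithelial adhesion genes, had at most 2 UMIs in a library. Of 8 fibroblast markers, 8 reached 20 CPM in each shScr library, 6 in shAPC day 3 and 7 in shAPC day 7. The lowest of them, PDGFRA, was at 15.2 to 26.7 CPM, and the highest epithelial marker, KRT8, at 9.57 to 19.4 CPM. The fibroblast markers summed to 5768 to 7796 CPM, led by VIM and COL1A1, so the epithelial label stands beside a mesenchymal set of transcripts. The summed endothelial markers were at most 0.286 CPM and the immune ones at most 1.66 CPM.

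THBS1 was lower in shAPC than in shScr at both times. It lies on chromosome 15 at 39581079 to 39599466 (hg38, plus strand), and all 9 genes are annotated as protein coding. THBS1 was at 34.8 CPM in shScr day 3 (32.9 to 36.6, 1383 UMIs), 9.41 CPM in shAPC day 3 (8.42 to 10.5, 329 UMIs), 68.0 CPM in shScr day 7 (65.1 to 70.9, 2123 UMIs) and 27.0 CPM in shAPC day 7 (25.1 to 28.9, 767 UMIs). No intervals overlapped, and the level in shAPC day 7 was still under that of the earlier control. The log2 ratio of shAPC to shScr was -1.88 at day 3 (-2.06 to -1.71), or 27.1% of the control, and -1.33 at day 7 (-1.46 to -1.21), or 39.7%. From the lowest ratio up, THBS1 was number 2 of 5175 genes at day 3 and number 31 of 4573 at day 7. The genes THBS1-AS1 and FSIP1 overlap it on the other strand, and neither exceeded 0.844 CPM in a library. The sources do not state whether the counting used strand.

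**Figure D1:**
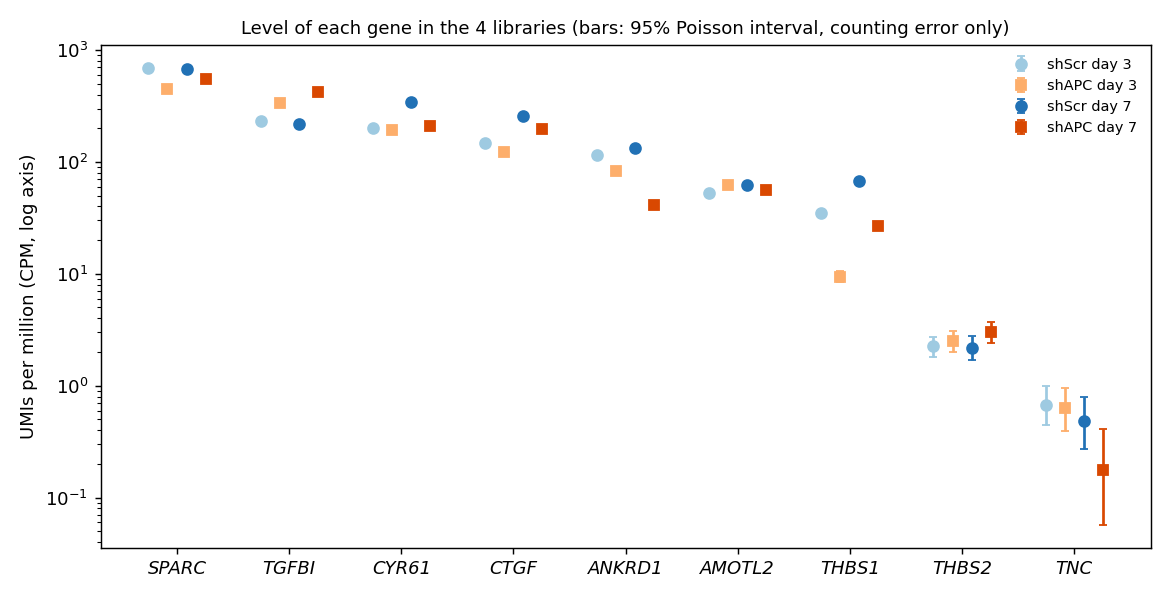
Level of the 9 genes in the 4 libraries, in CPM on a log axis. Circles are shScr and squares shAPC, and bars are 95% Poisson intervals for counting error. The shAPC squares of THBS1 (9.41 and 27.0 CPM) lie under its shScr circles (34.8 and 68.0 CPM), the day 7 square of ANKRD1 lies far under its other points, and the shAPC squares of TGFBI lie over its circles.

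THBS2 (chromosome 6, 169215780 to 169254050), the nearest relative of THBS1 in the set, was scarce. Its level was 2.24 CPM in shScr day 3, 2.49 in shAPC day 3, 2.18 in shScr day 7 and 3.02 in shAPC day 7, from 68 to 89 UMIs a library. The log2 ratio was 0.15 at day 3 (-0.29 to 0.60) and 0.47 at day 7 (0.00 to 0.95), and neither interval reaches that of THBS1. TNC (chromosome 9, 115019575 to 115118207), which encodes the matricellular protein tenascin-C, was rarer still. It had 27 UMIs in shScr day 3, 22 in shAPC day 3, 15 in shScr day 7 and 5 in shAPC day 7, which is at most 0.678 CPM. At this depth the TNC ratios of -0.11 (-0.99 to 0.76) and -1.45 (-3.26 to 0.08) do not show a difference.

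CYR61 and CTGF, also named CCN1 and CCN2, encode secreted matricellular proteins and are common readouts of YAP. CYR61 lies on chromosome 1 at 85580761 to 85584589 and CTGF on chromosome 6 at 131948176 to 131951372. CYR61 was at 202 CPM in shScr day 3, 192 in shAPC day 3, 340 in shScr day 7 and 211 in shAPC day 7. Only shScr day 7 stood out, and the other 3 libraries lay close together. The log2 ratio of CYR61 was -0.07 at day 3 (-0.12 to -0.02) and -0.69 at day 7 (-0.74 to -0.64). CTGF was at 149 CPM in shScr day 3, 123 in shAPC day 3, 257 in shScr day 7 and 195 in shAPC day 7. Both shAPC libraries were thus below the control of the same day, though shAPC day 7 was above shScr day 3. The log2 ratio of CTGF was -0.28 at day 3 (-0.33 to -0.22) and -0.40 at day 7 (-0.45 to -0.35), and the intervals do not reach those of THBS1.

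ANKRD1 (chromosome 10, 90912096 to 90921087), an ankyrin repeat protein of nucleus and cytoplasm, was at least 2-fold lower in shAPC at day 7 but not at day 3. Its level was 116 CPM in shScr day 3, 82.9 in shAPC day 3, 133 in shScr day 7 and 41.2 in shAPC day 7. The shAPC libraries were the lowest, with shAPC day 7 far under the rest. The log2 ratio was -0.48 at day 3 (-0.55 to -0.41) and -1.69 at day 7 (-1.78 to -1.59), or 31.0% of the control, and from the lowest ratio up it was number 124 at day 3 and number 13 at day 7. At day 7 its ratio over all kept cells thus lay below that of THBS1, and the intervals do not overlap. The order varied with depth. In cells of 10000 to under 30000 UMIs ANKRD1 was again the lower, at -2.20 against -1.59. In cells of at least 30000 UMIs ANKRD1 was at -1.33 (-1.45 to -1.22) and THBS1 at -1.12 (-1.29 to -0.94), with overlapping intervals. In cells of 2000 to under 10000 UMIs ANKRD1 was at -2.08 (-2.79 to -1.43) and THBS1 at -3.00 (-4.35 to -1.90). The difference between the days' ratios was -1.21 for ANKRD1 and 0.55 for THBS1. AMOTL2 (chromosome 3, 134355347 to 134375479), a junctional scaffold, was at 52.7 CPM in shScr day 3, 61.9 in shAPC day 3, 62.1 in shScr day 7 and 56.1 in shAPC day 7. These levels are close, and the log2 ratio was 0.23 at day 3 (0.14 to 0.32) and -0.15 at day 7 (-0.24 to -0.05). With TMM or DESeq2 scaling, or relative to the median gene, the day 3 ratio of AMOTL2 turned negative.

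TGFBI (chromosome 5, 136028988 to 136063818) encodes a matrix protein induced by TGF-beta that links collagen to integrins, and it was the only member with more than 20 CPM that was higher in shAPC at both days under every scaling tried. It was at 232 CPM in shScr day 3, 337 in shAPC day 3, 216 in shScr day 7 and 423 in shAPC day 7. Both shAPC libraries exceeded both controls. The log2 ratio was 0.54 at day 3 (0.50 to 0.58), with 80% of genes lower, and 0.97 at day 7 (0.92 to 1.01), or 196% of the control, with 99.1% of genes lower. The size of the day 7 ratio varied, and it was 0.58 as a mean over cells of CPM. By depth it was 0.23 (-0.05 to 0.51) in cells of 2000 to under 10000 UMIs, where the interval spans 0. It was 1.46 in those of 10000 to under 30000 and 0.74 in those of at least 30000. Collagen genes of the fibroblast marker list were higher in shAPC at day 7 too, with log2 ratios of 0.68 for COL1A1, 1.18 for COL1A2 and 1.33 for COL3A1, against 0.07, 0.36 and 0.55 at day 3. COL1A2 and COL3A1 were the 2 of 8 markers at least 2-fold higher at day 7, against 0.787% of all genes. The other markers did not all follow, with PDGFRA at -0.70, VIM at 0.00, PDGFRB at 0.02, LUM at 0.22 and DCN at 0.42 at day 7. At day 3 these were -0.70, -0.09, -0.58, 0.44 and 0.75. The part of the collagen genes in the result for TGFBI was not tested. SPARC (chromosome 5, 151661096 to 151686975), a collagen-binding matricellular protein, was the most abundant member by UMIs. Its level was 690 CPM in shScr day 3, 445 in shAPC day 3, 681 in shScr day 7 and 553 in shAPC day 7. Both shAPC libraries were below both controls, with a log2 ratio of -0.63 at day 3 (-0.66 to -0.60) and -0.30 at day 7 (-0.33 to -0.27).

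Of the 9 genes, 7 had at least 20 CPM in a library of a contrast, and for these a 2-fold difference on the log2(CPM + 1) scale was counted. At day 3, 1 of 7 (THBS1) was at least 2-fold lower in shAPC, against 0.425% of all 5175 genes, and 0 of 7 were at least 2-fold higher, against 3.86%. At day 7, 2 of 7 (THBS1 and ANKRD1) were lower, against 1.77% of 4573 genes, and 0 of 7 higher, against 0.787%. THBS1 alone was lower at both days, as were 0.382% of 4448 genes. Since THBS1 was chosen by this contrast, nothing is read from its share. TGFBI, at 0.96 on this scale at day 7, lay just under the limit, and it passed with all deposited barcodes. Below a ratio of 0 lay 5 of 7 members at day 3, against 20.8% of all genes, and 6 of 7 at day 7, against 62.3%. THBS1, chosen for its low ratio, is in both counts, and the other members were chosen with earlier results of these data known. The 20.8% depends on the scaling, since the day 3 median of all genes was -0.13 under TMM and -0.11 under DESeq2 scaling. The median ratio of all genes was 0.28 at day 3 and -0.10 at day 7. Relative to it THBS1 was at -2.16 and -1.24, ANKRD1 at -0.76 and -1.59, CTGF at -0.55 and -0.30, CYR61 at -0.35 and -0.59, SPARC at -0.91 and -0.20, AMOTL2 at -0.05 and -0.05, and TGFBI at 0.27 and 1.06. The 90.1% share of higher genes among the 2-fold differences of day 3 was 55.3% under TMM scaling, and the 30.8% of day 7 was 47.5% without mitochondrial and ribosomal protein genes in the totals.

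**Figure D2:**
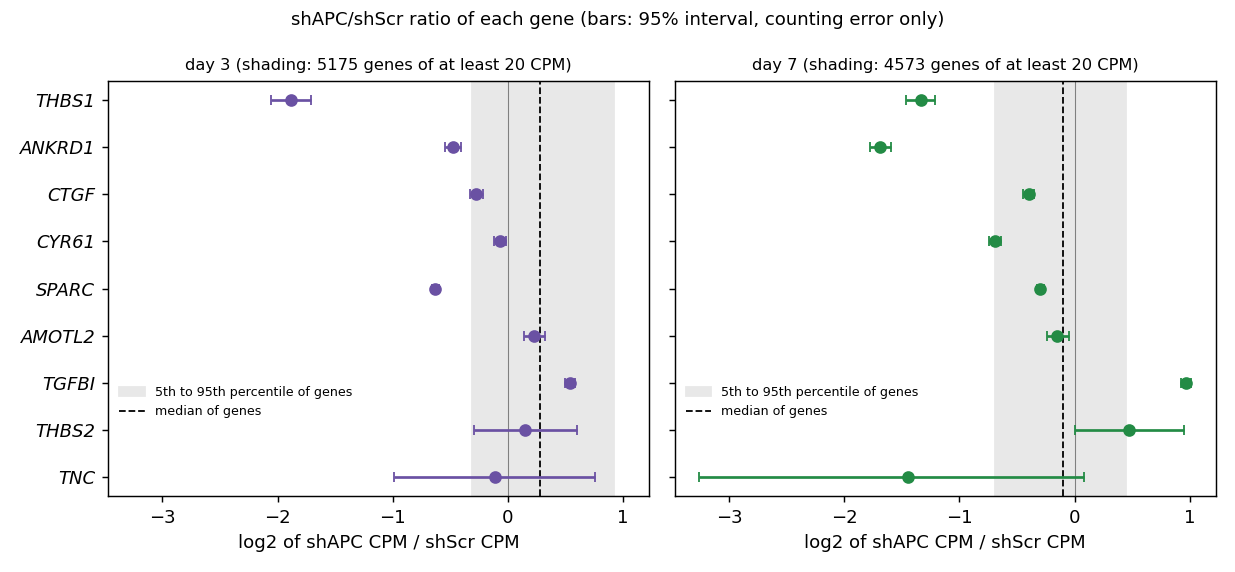
log2 ratio of shAPC CPM to shScr CPM of each gene at day 3 (left) and day 7 (right), with 95% intervals for counting error. Shading spans the 5th to 95th percentile of all genes with at least 20 CPM and the dashed line is their median (0.28 and -0.10). THBS1 lies far to the left of the shading at both days, ANKRD1 and SPARC lie to its left at day 3, and at day 7 ANKRD1 and TNC (-1.45) lie to its left and TGFBI and THBS2 (0.47) to its right, TNC and THBS2 with wide intervals.

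Between day 3 and day 7 THBS1 was higher at the later time in both cultures. The log2 ratio of day 7 to day 3 was 0.97 in shScr (0.87 to 1.07), or 196% of day 3, and 1.52 in shAPC (1.33 to 1.71), or 286%, while the median gene was at 0.05 and -0.34. CTGF was higher at day 7 in both as well, by 0.78 in shScr (0.73 to 0.83) and 0.66 in shAPC (0.60 to 0.72). CYR61 and ANKRD1 differed between the cultures. CYR61 had a ratio of 0.75 in shScr (0.71 to 0.79) and 0.13 in shAPC (0.08 to 0.18), and ANKRD1 one of 0.20 in shScr (0.14 to 0.26) and -1.01 in shAPC (-1.11 to -0.91). SPARC was level in shScr at -0.02 (-0.05 to 0.01) and at 0.32 in shAPC (0.28 to 0.35), and TGFBI was at -0.10 and 0.33. Time, depth and library cannot be told apart in these ratios.

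A level summed over cells does not say how many cells hold a transcript, so each cell of at least 2000 UMIs was thinned to 2000 UMIs at random. A THBS1 UMI was then seen in 5.45% of 899 cells of shScr day 3 (4.06 to 7.14), 1.93% of 673 cells of shAPC day 3 (1.03 to 3.28), 12.5% of 1198 cells of shScr day 7 (10.7 to 14.5) and 4.42% of 1087 cells of shAPC day 7 (3.27 to 5.81). The order of the libraries was that of the levels. Without thinning the shares of THBS1 were 35.3%, 17.6%, 25.5% and 20.8% in the same order, and 217, 115, 1402 and 391 kept cells were too shallow for the thinned share. No other cell type is labelled in the cultures that could show the share given by free RNA. ANKRD1 was seen in 15.4% (13.1 to 17.9), 11.4% (9.14 to 14.1), 19.4% (17.2 to 21.8) and 5.52% (4.24 to 7.05) of thinned cells in that order. TGFBI was seen in 25.7%, 40.7%, 28.4% and 48.1%, so that its higher level in shAPC went with more cells that held a UMI. The shares of CYR61 were 31.8%, 25.7%, 43.9% and 28.7%, those of CTGF 21.2%, 17.5%, 29.6% and 25.7%, and those of SPARC 66.3%, 52.6%, 67.1% and 59.2%. AMOTL2 stayed between 8.17% and 11.9%. THBS2 was in at most 0.644% of thinned cells. TNC was in 0 of 673 thinned cells of shAPC day 3, and in 14 of 788 (1.78%) without thinning, so the 0.547% that the 0 allows (exact binomial) limits only the share of cells with a UMI at 2000 UMIs. It was in at most 0.334% of thinned cells elsewhere.

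**Figure D3:**
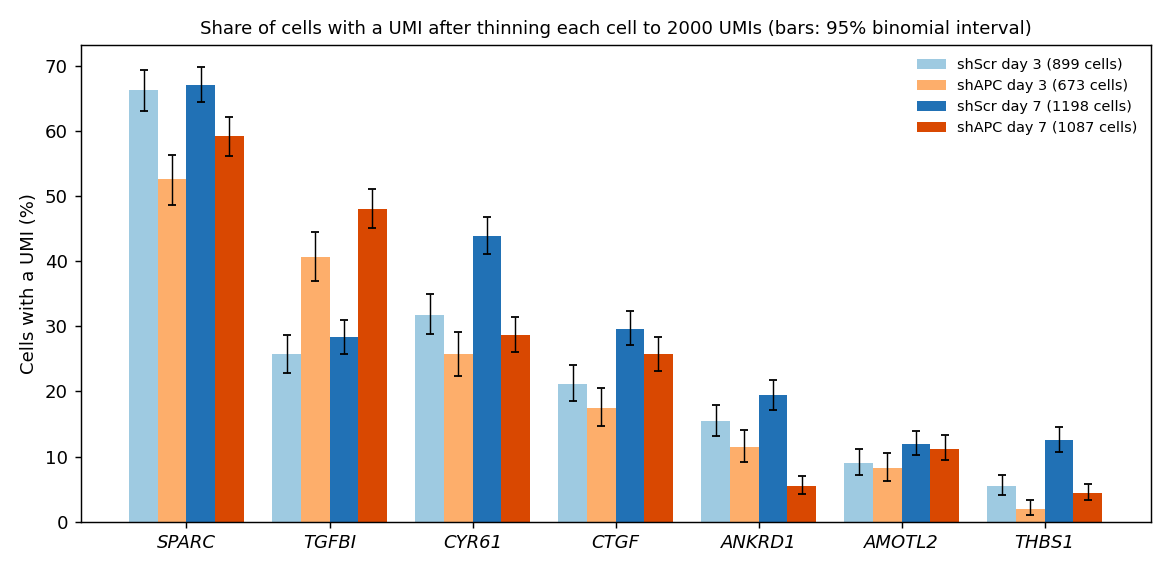
Percent of cells with at least 1 UMI of each gene after thinning to 2000 UMIs, in the 4 libraries, with exact binomial 95% intervals. In THBS1 and ANKRD1 the shAPC day 7 bar (4.42% and 5.52%) is far under that of shScr day 7 (12.5% and 19.4%), and in TGFBI both shAPC bars are the taller.

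The low level of THBS1 in shAPC was also read by depth and by the mitochondrial limit, both chosen after the data were seen. In cells of at least 30000 UMIs THBS1 was at 35.5 CPM in shScr day 3, 9.57 in shAPC day 3, 54.5 in shScr day 7 and 25.1 in shAPC day 7, with log2 ratios of -1.89 (-2.07 to -1.72) and -1.12 (-1.29 to -0.94). In cells of 10000 to under 30000 UMIs the ratio was -2.96 at day 3 (-5.26 to -1.37), from 3 UMIs in shAPC, and -1.59 at day 7 (-1.76 to -1.41). Cells of 2000 to under 10000 UMIs gave 5 and 3 UMIs of THBS1 at day 3, too few for a ratio, and 96 and 7 at day 7. Among barcodes over the mitochondrial limit THBS1 had a ratio of -1.21 at day 3 (-1.58 to -0.84) and -2.07 at day 7 (-2.21 to -1.94). ANKRD1 in these barcodes had -1.05 and -3.09, and TGFBI 0.51 and 0.80. At day 3 the deepest cells held 1275 of the 1383 THBS1 UMIs of shScr and 322 of the 329 of shAPC. Their day 3 ratio thus largely repeats the main one. The barcodes left out came from the same libraries, so these readings are descriptions and no separate support.

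Across the cells of a library, THBS1 went together with CTGF. Pearson's r was taken over log-transformed counts per 10000 in cells of at least 5000 UMIs, which were 809, 616, 1036 and 994 cells. For CTGF it was 0.424 in shScr day 3, 0.334 in shAPC day 3, 0.500 in shScr day 7 and 0.322 in shAPC day 7. Of 6846 genes seen in at least 20% of these cells, CTGF had the highest value when genes were ranked by the lowest r over the libraries. COL8A1 (0.255), ANKRD1 (0.219), MAP2 (0.218) and TMEM47 (0.213) followed by this lowest r. CYR61 was number 10 (0.193), AMOTL2 number 44 (0.134), SPARC number 95 (0.109) and TGFBI number 110 (0.105), and the median r of all genes was -0.003 to 0.032 with a 99th percentile of 0.158 to 0.219. All 6 members ranked were in the upper 5%. These r values are descriptions over cells that share a library and differ in depth. The r of THBS1 with log10 UMIs was -0.009 to 0.109 and that of CTGF 0.013 to 0.145.

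**Figure D4:**
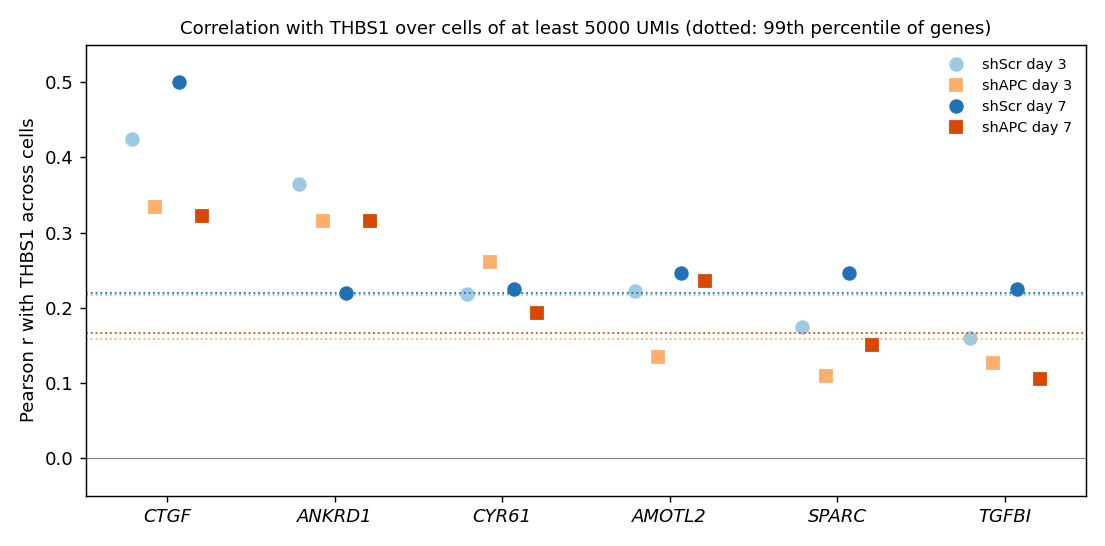
Pearson's r between THBS1 and 6 members across cells of at least 5000 UMIs, with 1 point per library and the 99th percentile over 6846 genes as a dotted line of the same colour. CTGF lies over its dotted line in all 4 libraries, at 0.322 to 0.500, while TGFBI and SPARC lie under theirs in most.

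The YAP targets also went with each other, though SPARC went with CYR61 as well. The r of CYR61 and CTGF was 0.402, 0.462, 0.379 and 0.441 in the order above, and that of CTGF and ANKRD1 0.430, 0.229, 0.329 and 0.306. That of CYR61 and AMOTL2 was 0.379, 0.336, 0.259 and 0.278. For CTGF and AMOTL2 it was 0.323, 0.255, 0.223 and 0.338, and for CYR61 and ANKRD1 0.308, 0.296, 0.280 and 0.203. ANKRD1 and AMOTL2 had 0.262, 0.273, 0.179 and 0.129. SPARC and CYR61 had 0.291, 0.329, 0.255 and 0.182, so such values were not particular to the YAP targets. The r of TGFBI was 0.013 to 0.067 with CYR61, -0.103 to 0.034 with ANKRD1, 0.029 to 0.241 with AMOTL2, 0.103 to 0.221 with CTGF and 0.114 to 0.377 with SPARC, and the ranges with CTGF and SPARC overlap.

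THBS1 was read in cells of like CTGF count, a split chosen after its values were seen. Cells were thinned to 5000 UMIs and parted by their CTGF UMIs. In cells with 0 CTGF UMIs there were 0.146 THBS1 UMIs per cell in shScr day 3 (0.115 to 0.184), 0.0123 in shAPC day 3 (0.00399 to 0.0287), 0.194 in shScr day 7 (0.157 to 0.238) and 0.0980 in shAPC day 7 (0.0734 to 0.128). With 1 or 2 CTGF UMIs these were 0.151, 0.0473, 0.385 and 0.174 in the same order. In cells with at least 3 CTGF UMIs they were 0.634 (0.462 to 0.848), 0.115 (0.0461 to 0.236), 0.886 (0.752 to 1.04) and 0.280 (0.195 to 0.389). Thus THBS1 was more abundant in cells with much CTGF in every library. At each CTGF count it was lower in shAPC than in the control of that day. This parts again the UMIs by which THBS1 was chosen, so it is a description and no test. The shAPC day 3 values rest on 5, 7 and 7 THBS1 UMIs. The cells with at least 3 CTGF UMIs made up 8.78%, 9.90%, 16.9% and 12.6% of the cells.

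**Figure D5:**
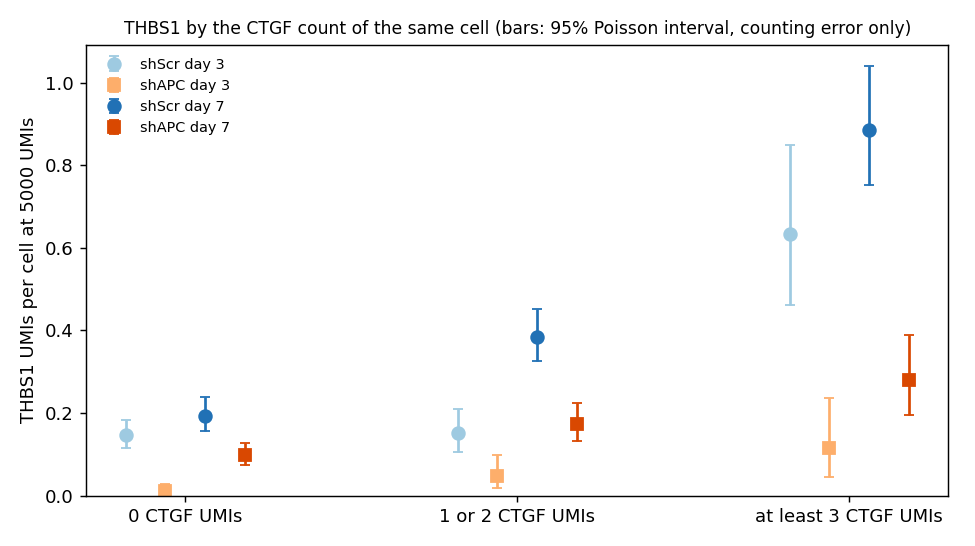
THBS1 UMIs per cell, at 5000 UMIs per cell, by the CTGF UMIs of the same cell, with Poisson 95% intervals. Each shAPC square lies under the shScr circle of its day, and the means in cells with at least 3 CTGF UMIs reach 0.634 and 0.886 in shScr against 0.115 and 0.280 in shAPC.

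The counts of members were uneven over cells. With 5000 UMIs per cell the variance of THBS1 over its mean was 1.88 in shScr day 3, 1.29 in shAPC day 3, 1.65 in shScr day 7 and 1.82 in shAPC day 7, where random sampling alone gives a value near 1. CTGF had 2.33, 2.81, 3.05 and 2.72 and ANKRD1 2.58, 2.20, 2.10 and 2.47, whereas AMOTL2 stayed at 1.08 to 1.20. A cell held up to 8 THBS1 UMIs in shScr day 3 and up to 19 CTGF UMIs in shScr day 7.

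Over the 4 libraries, the genes with the pattern nearest to THBS1 among 5299 were CRYAB, a small heat shock protein, at a distance of 0.730 in centred log2(CPM + 1), then SAA1, an acute-phase protein, at 0.841, PALLD, an actin-bundling protein, at 0.945, PLCE1-AS1 at 0.993 and MAP2, a microtubule protein, at 1.02. CRYAB was at 54.5 CPM in shScr day 3, 32.0 in shAPC day 3, 154 in shScr day 7 and 64.2 in shAPC day 7. Members ranked lower by this measure, with CTGF at number 38, CYR61 at 89, SPARC at 97, ANKRD1 at 783, AMOTL2 at 1446 and TGFBI at 4644. With 4 points such a likeness is a loose description. MAP2 was near to THBS1 both over libraries and over cells.

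The other genes of each pathway were read from lists. Of 18 further YAP targets 13 could be read, and 0 of 13 were at least 2-fold lower in shAPC at either day, against 0.425% and 1.77% of all genes. Their median log2(CPM + 1) ratio was 0.20 at day 3 and -0.07 at day 7, near the medians of all genes. GADD45A, a growth arrest gene, had a log2 ratio of 2.69 at day 3 (2.63 to 2.74) and -0.59 at day 7, and NT5E, an ectonucleotidase, one of 1.13 at day 3 (1.08 to 1.17) and 0.43 at day 7. These were the 2 of 13 that were at least 2-fold higher at day 3, against 3.86% of all genes. NT5E was no longer past 2-fold with TMM scaling (0.75), with DESeq2 size factors or relative to the median gene (0.85). The day 3 ratio of GADD45A was 1.72 without the 5% of cells with the most UMIs. CCDC80, the most abundant of the list, had 0.52 at both days, and AXL, a receptor kinase, had 0.20 and -0.69. Across cells, 6 of the 15 listed YAP targets that could be ranked (IGFBP3, CRIM1, F3, LATS2, RBMS3 and FJX1) were in the upper 5% of genes by their lowest r with THBS1. So were 3 of 5 of the genes induced by TGF-beta, 4 of 7 receptors and partners, 3 of 14 Hippo components and 1 of 10 genes of the TGF-beta pathway.

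Of 18 components of the Hippo pathway 12 could be read at day 3 and 11 at day 7. At day 3, 0 of 12 were at least 2-fold lower or higher, against 0.425% and 3.86% of all genes, and at day 7, 0 of 11, against 1.77% and 0.787%, so these counts do not set the list apart. The medians were 0.30 and -0.07, against 0.28 and -0.10 for all genes. LATS2, a core kinase and itself a YAP target, had a log2 ratio of 0.92 at day 3 (0.78 to 1.06), or 189% of the control with 94.3% of genes lower, and -0.07 at day 7 (-0.23 to 0.09). It was named after its values were seen. YAP1 was at 46.8 CPM in shScr day 3, 46.9 in shAPC day 3, 42.1 in shScr day 7 and 36.6 in shAPC day 7. NF2, an upstream activator of the kinases, had log2 ratios of -0.10 and -0.65, and MOB1A, a kinase cofactor, of 0.05 and -0.33. RNA levels do not show the phosphorylation or place of YAP in the cell.

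The TGF-beta ligands, latent binding proteins, receptors and SMADs likewise had 0 genes past 2-fold, of 9 read at day 3 and 8 at day 7, where the shares of all genes were 0.425% lower and 3.86% higher, then 1.77% and 0.787%. The medians were -0.03 and -0.12, against 0.28 and -0.10 for all genes. Below the median of all genes lay 8 of 9 at day 3 and 4 of 8 at day 7. The day 3 median was lower, at 0.12, for genes of at least 100 CPM, and the part of abundance was not tested. LTBP1, which anchors latent TGF-beta, had log2 ratios of 0.14 and -0.20, the ligand TGFB1 of -0.17 and -0.29, and the receptor TGFBR2 of -0.39 (-0.46 to -0.31) and -0.71 (-0.80 to -0.62). Of 13 genes induced by TGF-beta besides TGFBI, 6 could be read at day 3 and 4 at day 7. Their median log2(CPM + 1) ratios were -0.05 and -0.25, and 5 of 6 and 3 of 4 lay below the median of all genes. LTBP2, at -0.63 at day 3, is on this list and the one before, so it is in both day 3 counts below the median. TAGLN, an actin-binding protein, had log2 ratios of -0.21 and -0.06, and TGIF1, a transcriptional repressor, of 0.20 and -0.44. BHLHE40, a transcription factor, was the 1 of 6 past 2-fold at day 3, higher with 1.07 (0.90 to 1.23), against 3.86% of all genes. It fell short of 2-fold under other scalings, with 0.69 under TMM and 0.79 relative to the median gene. At day 7, when TGFBI had a log2 ratio of 0.97, the 4 genes read from this list lay at -0.43 to -0.06 in log2(CPM + 1). The sign of TAGLN at day 7 turned under 3 of 9 alternatives. Listed genes under 20 CPM lay on both sides, such as IL11 at 1.08 and CDKN2B at -0.81. Whether TGF-beta signalling differed was not tested.

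Of 16 further matricellular genes and relatives only SPOCK1, a proteoglycan related to SPARC, reached 20 CPM, with log2 ratios of -0.24 and -0.49. THBS3 and SMOC1 followed at no more than 3.92 and 5.90 CPM. Of 10 receptors and partners of thrombospondin-1, 7 could be read. SDC4, the syndecan of focal adhesions, was at 90.9 CPM in shScr day 3, 52.2 in shAPC day 3, 82.5 in shScr day 7 and 32.0 in shAPC day 7. Both shAPC libraries were below both controls, with log2 ratios of -0.80 (-0.88 to -0.72) and -1.36 (-1.48 to -1.26), and SDC4 was the 1 of 7 at least 2-fold lower at day 7, against 1.77% of all genes. ITGB1, the common integrin beta chain, had 0.12 and 0.24, CALR, a chaperone that also lies at the surface, had 0.13 and 0.05, and LRP1, an uptake receptor, had -0.06 and 0.58. The medians of this list were 0.12 and -0.20, against 0.28 and -0.10 for all genes. Below the median of all genes lay 7 of 7 at day 3 and 4 of 7 at day 7. For genes of at least 100 CPM the day 3 median was 0.12, and the part of abundance in these counts was not tested.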

How the data were processed

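The authors aligned the reads to hg38 and deposited, for each library, raw UMI counts per gene and barcode, with files of gene and barcode names. The submitters' processing notes name Cell Ranger 3.0.2, STAR and GRCh38, and the matrix headers name 3.0.2 (shScr) and 3.0.0 (shAPC). The annotation release and cell calling settings are not given in the sources used here. Kept barcodes had 200 or more genes, 500 or more UMIs and less than 5% of their UMIs on the 13 mitochondrial genes. No doublet caller was run and no doublets were removed. The study's ComBat, imputation and regression steps were not applied.

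Counts were summed over kept cells and scaled to CPM. CPM have exact Poisson intervals, ratios exact conditional binomial intervals and shares exact binomial intervals, all of 95% and for counting error only. Ratios over all genes used log2(CPM + 1) and genes of at least 20 CPM in 1 library of the pair, and this step was tested on simulated data. The ratios printed for single genes have no pseudocount. Cells were thinned by seeded hypergeometric draws. Gene positions are from GENCODE on hg38 by gene identifier, and promoters from RefSeq. Scaling alternatives used edgeR 4.0.16 and DESeq2 1.42.0 for size factors only, with R 4.3.3, Python 3.11.15, numpy 2.4.6 and scipy 1.17.1. The members and gene lists were chosen with earlier results of these data known. Named were all members, the 3 most abundant genes and all 2-fold genes of each list, the 5 nearest to THBS1 over libraries and the 5 nearest over cells. A gene that this rule names is not reported here. YAP targets named for their rank over cells, and the split by CTGF count, were chosen after the values were seen.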

Additional observations from a re-analysis of the deposited data

Results flagged for a closer look

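Of the genes named by the rule for named genes, 3, all outside the members, had log2 ratios of shAPC to shScr of opposite sign at the 2 times with both intervals off 0 and with opposite signs also relative to the median gene. Others changed sign without meeting these conditions, such as AXL (0.20 and -0.69, but -0.07 and -0.59 relative to the median). GADD45A, of the YAP target list, had 2.69 at day 3 and -0.59 at day 7, a change of -3.28. Its day 3 ratio was 1.72 without the 5% of cells with the most UMIs. Among the epithelial markers, KRT18 had 0.76 and -0.77, a change of -1.53, and CLDN7 had 0.97 and -0.34, a change of -1.31, both at under 20 CPM in each library. Without the 5% of cells with the most UMIs the day 3 ratio of KRT18 was 0.23, close to the median gene at 0.20. With 1 library per group these differences were not tested.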

How the results depend on the processing

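The ratio of THBS1 was below 0 at both days under all alternatives run, but in day 3 cells of 2000 to under 10000 UMIs its interval spans 0. At day 3 its log2 ratio was -2.26 with TMM scaling, -2.25 with DESeq2 size factors, -2.16 relative to the median gene and -1.47 as a mean over cells of CPM. It was -0.33 in cells of 2000 to under 10000 UMIs (-3.02 to 2.03, from 5 and 3 UMIs), -2.96 in those of 10000 to under 30000 and -1.21 in barcodes over the mitochondrial limit. At day 7 it was -1.06 as a mean over cells, -1.59 with all deposited barcodes, -1.60 with a mitochondrial limit of 10%, -3.00 in cells of 2000 to under 10000 UMIs, -1.59 in those of 10000 to under 30000, -1.12 in those of at least 30000 and -2.07 over the mitochondrial limit. The splits by depth and those barcodes were added after seeing the data. Members at least 2-fold lower at day 3 numbered 2 with TMM (SPARC joined), 2 at a 1.5-fold limit and 0 at a minimum of 100 CPM, under which THBS1 lies. That minimum left 1 at day 7 and 0 at both days. TGFBI was called higher at day 7 under 7 of 15 alternatives, the 1.5-fold limit among them. The day 3 ratios of AMOTL2 and THBS2 turned negative under TMM (-0.15 and -0.23), DESeq2 and the median, while the other members kept their sign under all 9 alternatives of scaling and cells. Genes at least 2-fold lower at day 3 numbered 22, but 67 with TMM and 60 with DESeq2. The cause of these shifts was not tested. With 1 library per group, no replicate could be left out, and shScr day 7, the shallowest library at a median of 1330 UMIs, limits what shares of cells can show.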
